A study of Mus musculus with 24 samples.

Results

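The 7 genes described here are the MHC class II genes H2-Aa, H2-Ab1, H2-Eb1, H2-DMa and H2-DMb1, the invariant chain gene Cd74 and the class II transactivator gene Ciita. They were chosen by gene symbol, and all 7 were found among the 20961 genes listed. Of these, 5 lie on chromosome 17 inside the mouse MHC, and 2 lie elsewhere: Cd74 on chromosome 18 and Ciita on chromosome 16. RNA had been sequenced from whole hearts of wild-type NZO/HlLtJ, CAST/EiJ and C57BL/6J mice, females and males, that ate a diet with 44% fat (called high fat, high sugar by the submitters) or a control diet with 10% fat, both with fiber. The diets started at 6 weeks of age, hearts were taken at 15 weeks, and no other treatment was labelled. Strain, sex and diet make 12 groups with 2 libraries each, so a strain has 8. Nothing in the labels states that 2 libraries of 1 group are 2 mice, so p-values cover only the spread between these samples, which may be technical.

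MHC class II molecules are pairs of an alpha and a beta chain that carry peptides from the endosomal system to the surface of dendritic cells, B cells and macrophages, where helper T cells read them. H2-Aa and H2-Ab1 encode the I-A pair, H2-Eb1 encodes the beta chain of I-E, Cd74 chaperones newly made class II molecules and plugs their peptide groove, and H2-DMa with H2-DMb1 forms the H2-DM editor that helps exchange that plug for a peptide. Ciita binds no DNA by itself. It is recruited to the X and Y boxes of class II promoters by the RFX, CREB and NF-Y factors, and it sets whether these genes are transcribed. C57BL/6J belongs to the MHC haplotypes known to lack I-E at the cell surface, because a deletion at its promoter silences the alpha chain gene, listed here as H2-Ea-ps.

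The promoters of 3 members are shown because the X and Y boxes are the sequence feature through which Ciita acts on them. Each line gives the 150 bases before the RefSeq transcription start (GRCm38.p6), read 5′ to 3′ on the strand of the gene, with matches to the Y box core TGATTGG and the X box core AACNGAT in capitals.
H2-Eb1, chr17:34305717-34305866, plus strand: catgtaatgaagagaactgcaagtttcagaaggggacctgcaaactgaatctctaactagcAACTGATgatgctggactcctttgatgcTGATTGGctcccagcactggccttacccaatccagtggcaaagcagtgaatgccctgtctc
H2-DMb1, chr17:34153041-34153190, plus strand: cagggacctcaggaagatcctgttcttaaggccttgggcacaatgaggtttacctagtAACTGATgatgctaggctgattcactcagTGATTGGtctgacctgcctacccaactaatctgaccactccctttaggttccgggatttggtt
H2-Aa, chr17:34287824-34287973, minus strand: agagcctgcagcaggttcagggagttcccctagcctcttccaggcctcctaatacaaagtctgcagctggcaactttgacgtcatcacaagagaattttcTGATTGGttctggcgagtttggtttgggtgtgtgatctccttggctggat
In H2-Eb1 the X match began 89 bases and the Y match 61 bases before the start, and in H2-DMb1 they began 92 and 63 bases before it. H2-Aa held the Y match, 50 bases before its start, and no match to the X letters. Neither 150-base window of H2-DMa held a match, and neither lay at the deposited start of the gene. The windows ended at bases 34122831 and 34125517 and that start is at 34135182, so the sequence before it was not read. No promoter of H2-Ab1, Cd74 or Ciita was read. Matches also occurred in class II locus genes that are not members. H2-DMb2 held both, X at 121 and Y at 92 bases, in a window ending at 34145248, where its deposited start is 34143307. H2-Ob and H2-Oa held the Y match, at 59 and 45 bases. Whether a match goes with a strain difference was not tested. The letters were chosen with these promoters in view. A box spelled otherwise is missed, so the lack of a match does not show that a promoter lacks the box. Searched on both strands, the Y letters occurred in 5.71% of the 32851 promoters, the X letters in 3.42% and both in 0.213%, and the 2 motifs do not overlap in the windows shown.

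Total counts per library lay between 30205073 and 52254058, and levels are given as counts scaled to a TMM-adjusted library total of 1e6 (CPM). At this depth Cd74 had 405 to 3010 counts per library, whereas Ciita had 9 to 108 and H2-DMb1 12 to 135.7, so counting error is a larger part of the spread of the last 2. Tests were read from a fit over 17203 genes in edgeR's quasi-likelihood test with Benjamini-Hochberg adjustment. All 7 members passed its filter on low counts, and a gene was called at an adjusted p under 0.05. Hearts carried cardiomyocyte RNA in every library, with Myh6 at 31490 ± 2899 CPM in NZO/HlLtJ, 30800 ± 2146 CPM in CAST/EiJ and 31070 ± 1561 CPM in C57BL/6J (SD, n = 8 each).

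All 7 members were lower in NZO/HlLtJ and in CAST/EiJ hearts than in C57BL/6J hearts, on chromosome 17 and off it. The median log2 change of the 7 was -1.53 in NZO/HlLtJ and -2.03 in CAST/EiJ, against medians of 0 and 0.0011 over all genes tested. All 7 were called lower in each strain, where 17.6% of all genes tested were called lower in NZO/HlLtJ (35.5% in either direction) and 29.7% in CAST/EiJ (58.8% in either direction). Libraries of NZO/HlLtJ and C57BL/6J did not overlap for 5 of the 7 members, against 6.06% of all genes lower in that way. Libraries of CAST/EiJ and C57BL/6J did not overlap for 6 of the 7, against 13.8%. Both comparisons use the same C57BL/6J libraries, and whether reads of the other strains were aligned to sequence of their own strain is not stated.

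**Figure D1:**
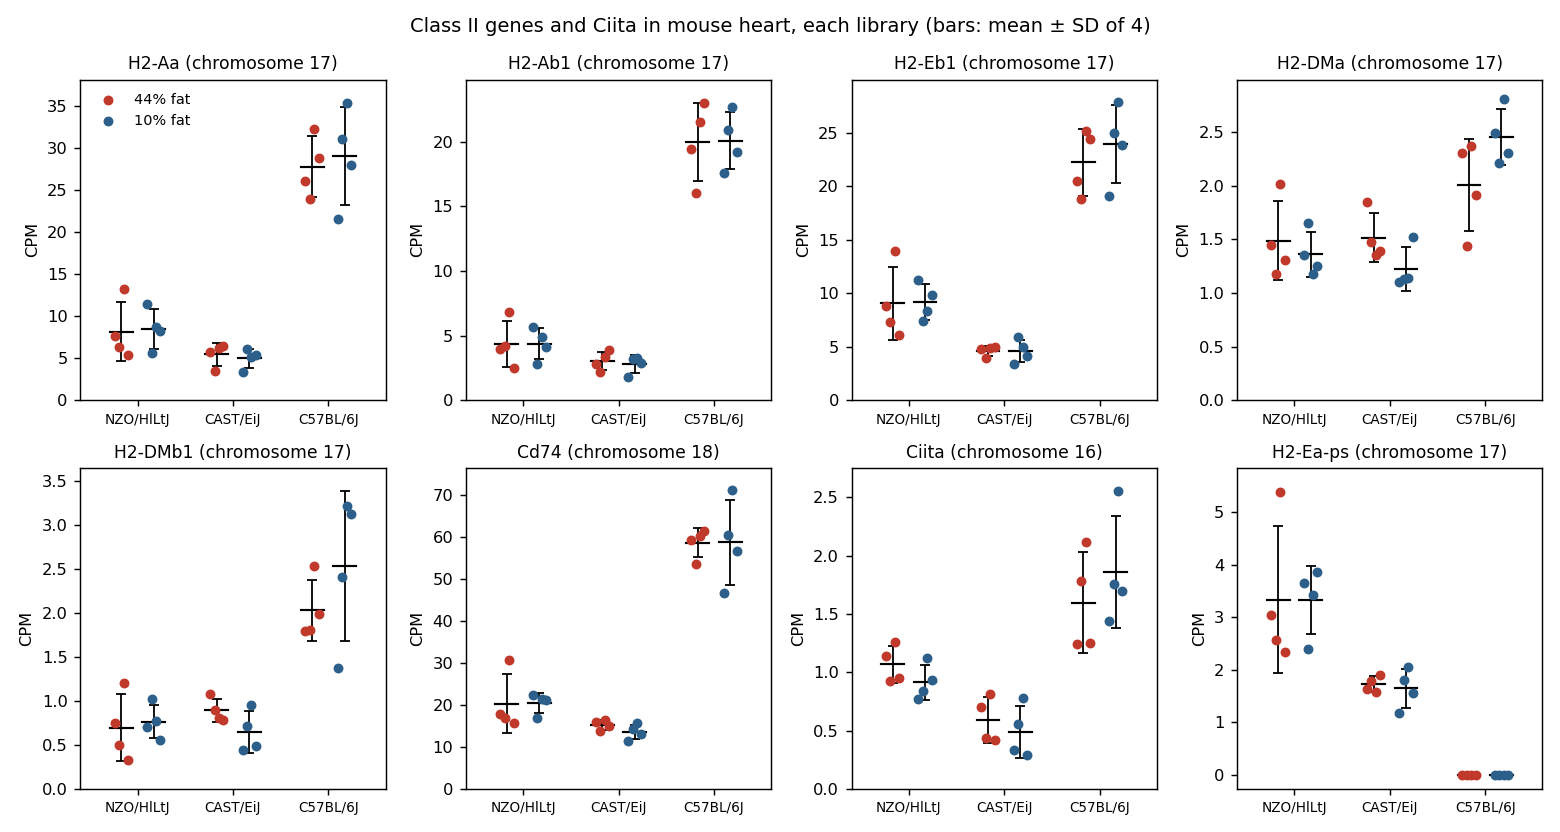
Level in CPM of the 7 members and of H2-Ea-ps in each of the 24 libraries, by strain and diet; points are libraries, and bars are the mean ± SD of 4 libraries. For Cd74, all NZO/HlLtJ and CAST/EiJ libraries lie at or under 30.7 CPM and all C57BL/6J libraries at or above 46.7 CPM, while H2-Ea-ps is at 0 in the C57BL/6J libraries.

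H2-Ab1 and H2-Aa, the pair of I-A chains, had the largest differences of the 7 in both strains. H2-Ab1, the I-A beta chain (GRCm38 chromosome 17, 34257689 to 34269419, plus strand), ranged over 2.50 to 6.81 CPM in NZO/HlLtJ with a median of 4.15, over 1.78 to 3.85 CPM in CAST/EiJ with a median of 3.01, and over 16.1 to 23.0 CPM in C57BL/6J with a median of 20.2. Every C57BL/6J library lay above every library of both other strains. The log2 change was -2.19 (SE 0.19, adjusted p = 2.58e-07) in NZO/HlLtJ and -2.80 (SE 0.19, adjusted p = 8.24e-09) in CAST/EiJ, which are levels 4.56-fold and 6.98-fold lower than in C57BL/6J.

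H2-Aa, the I-A alpha chain, whose promoter holds the Y match above (chromosome 17, 34282744 to 34287823, minus strand), ranged over 5.36 to 13.2 CPM in NZO/HlLtJ (median 7.93), 3.39 to 6.39 CPM in CAST/EiJ (median 5.57) and 21.6 to 35.4 CPM in C57BL/6J (median 28.4). Again no library of the other strains reached the C57BL/6J range. Its log2 change was -1.77 (SE 0.20, adjusted p = 1.01e-05) in NZO/HlLtJ and -2.45 (SE 0.21, adjusted p = 1.98e-07) in CAST/EiJ.

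H2-Eb1, the I-E beta chain with both matches in its promoter (chromosome 17, 34305867 to 34316674, plus strand), ranged over 6.12 to 13.9 CPM in NZO/HlLtJ (median 8.55), 3.41 to 5.87 CPM in CAST/EiJ (median 4.79) and 18.8 to 27.9 CPM in C57BL/6J (median 24.2). It was the one member whose libraries were fully separated among all 3 strains. The log2 change against C57BL/6J was -1.33 (SE 0.16, adjusted p = 7.51e-06) in NZO/HlLtJ and -2.32 (SE 0.16, adjusted p = 1.03e-08) in CAST/EiJ.

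H2-Ea-ps, the gene of the I-E alpha chain and the partner of H2-Eb1, went the opposite way. This gene, annotated as a polymorphic pseudogene (chromosome 17, 34341959 to 34344645, minus strand), is not one of the 7. It averaged 3.33 ± 1.01 CPM in NZO/HlLtJ and 1.68 ± 0.268 CPM in CAST/EiJ (SD, n = 8 each), and all 8 C57BL/6J libraries had 0 counts. Against a floor of 3 counts per library, which is 0.0659 to 0.104 CPM in C57BL/6J and covers counting error only, it was at least 39.6-fold higher in NZO/HlLtJ and at least 20-fold higher in CAST/EiJ.

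The invariant chain gene Cd74 (chromosome 18, 60803848 to 60812652, plus strand) had the highest level of the 7 per length of annotated exon, at 12.2, 8.59 and 35.0 CPM per kb in NZO/HlLtJ, CAST/EiJ and C57BL/6J. On the CPM scale it ranged over 15.8 to 30.7 in NZO/HlLtJ (median 19.5), 11.5 to 16.3 in CAST/EiJ (median 14.6) and 46.7 to 71.2 in C57BL/6J (median 59.8). The lowest C57BL/6J library stood above the highest library of each other strain. The log2 change was -1.53 (SE 0.12, adjusted p = 1.17e-07) in NZO/HlLtJ and -2.03 (SE 0.12, adjusted p = 1.98e-09) in CAST/EiJ.

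The H2-DM genes had lower levels and unequal changes. H2-DMb1, the DM beta chain with both matches in its promoter (chromosome 17, 34153072 to 34160230, plus strand), ranged over 0.326 to 1.21 CPM in NZO/HlLtJ (median 0.730), 0.440 to 1.08 CPM in CAST/EiJ (median 0.795) and 1.38 to 3.22 CPM in C57BL/6J (median 2.20). The C57BL/6J libraries did not overlap the others. Its log2 change was -1.60 (SE 0.23, adjusted p = 1.48e-05) in NZO/HlLtJ and -1.55 (SE 0.22, adjusted p = 8.12e-06) in CAST/EiJ. H2-DMb2 is a near-identical neighbour that can share its reads, so the split between them is uncertain. With the counts of both summed, the log2 changes were -1.37 (adjusted p = 0.000113) and -1.25 (adjusted p = 0.000109).

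H2-DMa, the DM alpha chain (chromosome 17, 34119541 to 34139101, plus strand), differed least. It ranged over 1.18 to 2.01 CPM in NZO/HlLtJ (median 1.33), 1.1 to 1.85 CPM in CAST/EiJ (median 1.37) and 1.44 to 2.81 CPM in C57BL/6J (median 2.31), so both other strains overlapped C57BL/6J. The log2 change was -0.64 (SE 0.14, adjusted p = 0.00121) in NZO/HlLtJ and -0.71 (SE 0.14, adjusted p = 0.00022) in CAST/EiJ. Read at 44% fat alone, it was no longer called, at -0.43 (adjusted p = 0.131) in NZO/HlLtJ and -0.40 (adjusted p = 0.1004) in CAST/EiJ. Brd2 overlaps the annotated H2-DMa by 360 exon bases on the opposite strand, of which 0 lie within the span that the deposited table gives for H2-DMa.

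Ciita, the transactivator (chromosome 16, 10480059 to 10528418, plus strand), followed the same order of strains at a low level. It ranged over 0.767 to 1.26 CPM in NZO/HlLtJ (median 0.942), 0.292 to 0.810 CPM in CAST/EiJ (median 0.496) and 1.24 to 2.55 CPM in C57BL/6J (median 1.73). The ranges of NZO/HlLtJ and C57BL/6J overlapped slightly, and those of CAST/EiJ and C57BL/6J did not overlap. Its log2 change was -0.80 (SE 0.21, adjusted p = 0.00583) in NZO/HlLtJ and -1.67 (SE 0.22, adjusted p = 2.76e-06) in CAST/EiJ. The NZO/HlLtJ difference was called at 10% fat alone but not at 44% fat alone (-0.57, adjusted p = 0.185), in females alone (-0.77, adjusted p = 0.0772) or in males alone (-0.82, adjusted p = 0.0506). Dexi overlaps Ciita on the opposite strand by 329 exon bases, and the handling of strand in counting is not given in the sources used here.

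**Figure D2:**
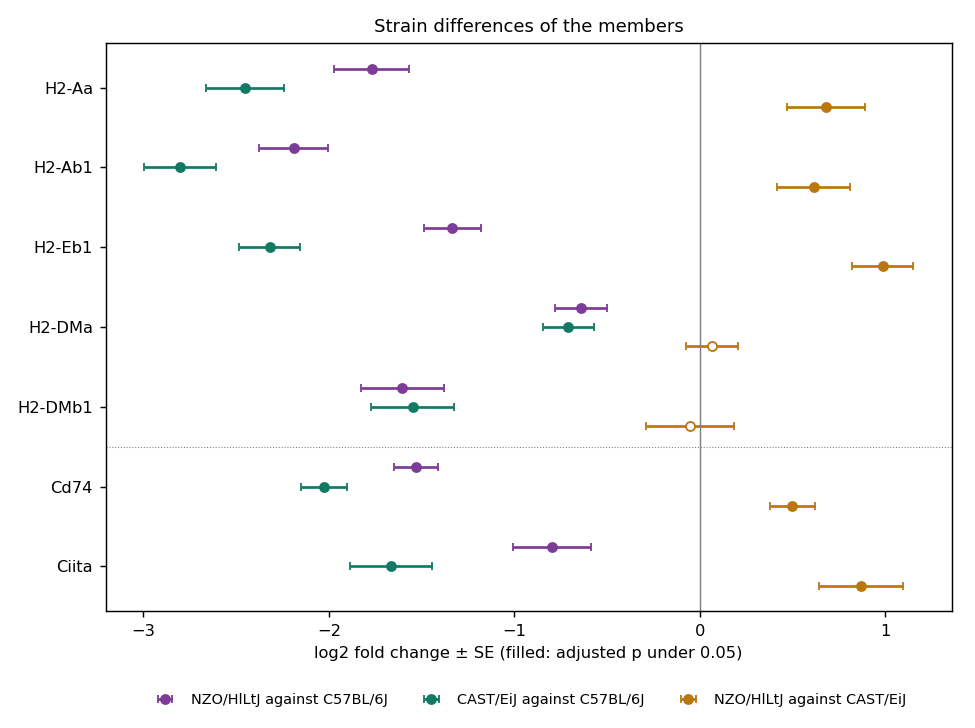
Log2 fold change ± SE of the 7 members for the 3 pairs of strains, with members on chromosome 17 above the dotted line and Cd74 and Ciita below it; filled points have an adjusted p under 0.05. All points against C57BL/6J lie left of 0, from -2.80 for H2-Ab1 in CAST/EiJ to -0.64 for H2-DMa in NZO/HlLtJ.

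Between the 2 lower strains, NZO/HlLtJ was higher than CAST/EiJ for 5 of the 7 members, where 60.3% of all genes were called and 30.5% were called higher. The log2 differences were 0.99 for H2-Eb1 (SE 0.16, adjusted p = 0.000102), 0.87 for Ciita (SE 0.23, adjusted p = 0.00265), 0.68 for H2-Aa (SE 0.21, adjusted p = 0.0125), 0.61 for H2-Ab1 (SE 0.20, adjusted p = 0.0148) and 0.50 for Cd74 (SE 0.12, adjusted p = 0.00256). H2-DMa (0.07, SE 0.14, adjusted p = 0.704) and H2-DMb1 (-0.05, SE 0.24, adjusted p = 0.859) did not pass the test. H2-Ea-ps was also higher in NZO/HlLtJ, by 0.98 on the log2 scale (SE 0.18, adjusted p = 0.000262). The order CAST/EiJ, NZO/HlLtJ, C57BL/6J, low to high, therefore held by the test for the 3 chain genes, Cd74 and Ciita. Libraries of NZO/HlLtJ lay wholly above those of CAST/EiJ for 1 of the 7, H2-Eb1, against 14% of all genes. Of these 5, the number called was 2 at 44% fat alone, 3 in females alone and 3 in males alone.

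The samples fall into 3 ranges of the identifiers given in their titles, whose meaning the labels do not state, and NZO/HlLtJ has no library in the first range. Within that first range, CAST/EiJ against C57BL/6J called all 7 members lower, with log2 changes of -2.003 for Cd74, -2.87 for H2-Ab1 and -1.48 for Ciita. With the range as a block, all 7 were called lower in NZO/HlLtJ too, with -1.51 for Cd74 and -0.62 for Ciita (adjusted p = 0.0432).

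Members on and off chromosome 17 were then compared inside each library, by the log2 CPM of a member minus the log2 CPM of Cd74, in limma with Benjamini-Hochberg adjustment. Since Cd74 itself was low in NZO/HlLtJ and CAST/EiJ, 97.3% and 96.6% of all genes were called on this scale against C57BL/6J, and the median over all genes was 1.55 and 2.02. A member close to 0 moved as far as Cd74, and a member below 0 fell further than Cd74. On this scale 3 of 6 members were called in NZO/HlLtJ, 2 higher and 1 lower, where 96.3% of all genes were called higher and 0.965% lower. In CAST/EiJ 5 of 6 were called, 2 higher and 3 lower, where 94.7% of all genes were called higher and 1.88% lower.

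H2-Ab1 fell further than Cd74 in both strains. Its log2 ratio to Cd74 was -2.24 ± 0.243 in NZO/HlLtJ, -2.32 ± 0.250 in CAST/EiJ and -1.55 ± 0.114 in C57BL/6J (SD, n = 8 each), a difference of -0.70 (adjusted p = 5.43e-05) and -0.77 (adjusted p = 1.64e-05). H2-Aa was lower relative to Cd74 in CAST/EiJ (-0.43, adjusted p = 0.00549), and in NZO/HlLtJ its difference was -0.27 (adjusted p = 0.0617). That NZO/HlLtJ value for H2-Aa became called, at -0.35 (adjusted p = 0.0209), without NZO/HlLtJ female 10% fat replicate 1, and at -0.31 (adjusted p = 0.0281) without NZO/HlLtJ male 44% fat replicate 1.

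H2-Eb1 was the chain gene that separated NZO/HlLtJ from CAST/EiJ on this scale. Its log2 ratio was -1.17 ± 0.136 in NZO/HlLtJ, -1.65 ± 0.166 in CAST/EiJ and -1.35 ± 0.112 in C57BL/6J (SD, n = 8 each). The difference was 0.18 in NZO/HlLtJ against C57BL/6J (adjusted p = 0.126), -0.30 in CAST/EiJ against C57BL/6J (adjusted p = 0.0165), and 0.47 in NZO/HlLtJ against CAST/EiJ (adjusted p = 0.00148). Without CAST/EiJ female 10% fat replicate 1 the second of these was -0.24 (adjusted p = 0.0526), and without NZO/HlLtJ male 44% fat replicate 2 the first was 0.21 (adjusted p = 0.0432).

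H2-DMa fell less than Cd74 in both strains, and Ciita fell less than Cd74 in NZO/HlLtJ. For H2-DMa the ratio was -3.78 ± 0.280 in NZO/HlLtJ, -3.36 ± 0.245 in CAST/EiJ and -4.70 ± 0.285 in C57BL/6J (SD, n = 8 each), a difference of 0.92 (adjusted p = 1.29e-05) and 1.34 (adjusted p = 9.12e-08) against C57BL/6J. For Ciita the difference was 0.80 in NZO/HlLtJ (adjusted p = 0.00066), and 0.39 in CAST/EiJ, which did not pass the test (adjusted p = 0.0564). That CAST/EiJ value was called, at 0.44 to 0.52, without any of C57BL/6J male 44% fat replicate 1, C57BL/6J female 44% fat replicate 2, CAST/EiJ male 10% fat replicate 2, CAST/EiJ female 44% fat replicate 2 or CAST/EiJ male 44% fat replicate 2. H2-DMb1 was at -0.07 (SE 0.17, adjusted p = 0.699) in NZO/HlLtJ, and it fell less than Cd74 in CAST/EiJ (0.52, adjusted p = 0.00784).

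Between NZO/HlLtJ and CAST/EiJ, 3 of 6 members were called on the Cd74 scale, 1 higher and 2 lower, where 9.6% of all genes were called higher and 56.3% lower (65.9% in all). Relative to Cd74, H2-Eb1 was higher in NZO/HlLtJ, as given above, and H2-DMb1 (-0.59, adjusted p = 0.00677) and H2-DMa (-0.42, adjusted p = 0.0196) were lower. The H2-DMa call was lost with the identifier range as a block (-0.37, adjusted p = 0.0832), without CAST/EiJ male 10% fat replicate 2 (-0.34, adjusted p = 0.0664) and without NZO/HlLtJ female 10% fat replicate 1 (-0.34, adjusted p = 0.0645). Ciita was at 0.40 (adjusted p = 0.0691), and it was called at 0.55 (adjusted p = 0.0337) with that block, and at 0.48 to 0.53 without CAST/EiJ male 10% fat replicate 1, CAST/EiJ male 44% fat replicate 1 or NZO/HlLtJ male 44% fat replicate 1. A ratio shows unequal change, and it does not show which of the 2 genes moved.

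**Figure D3:**
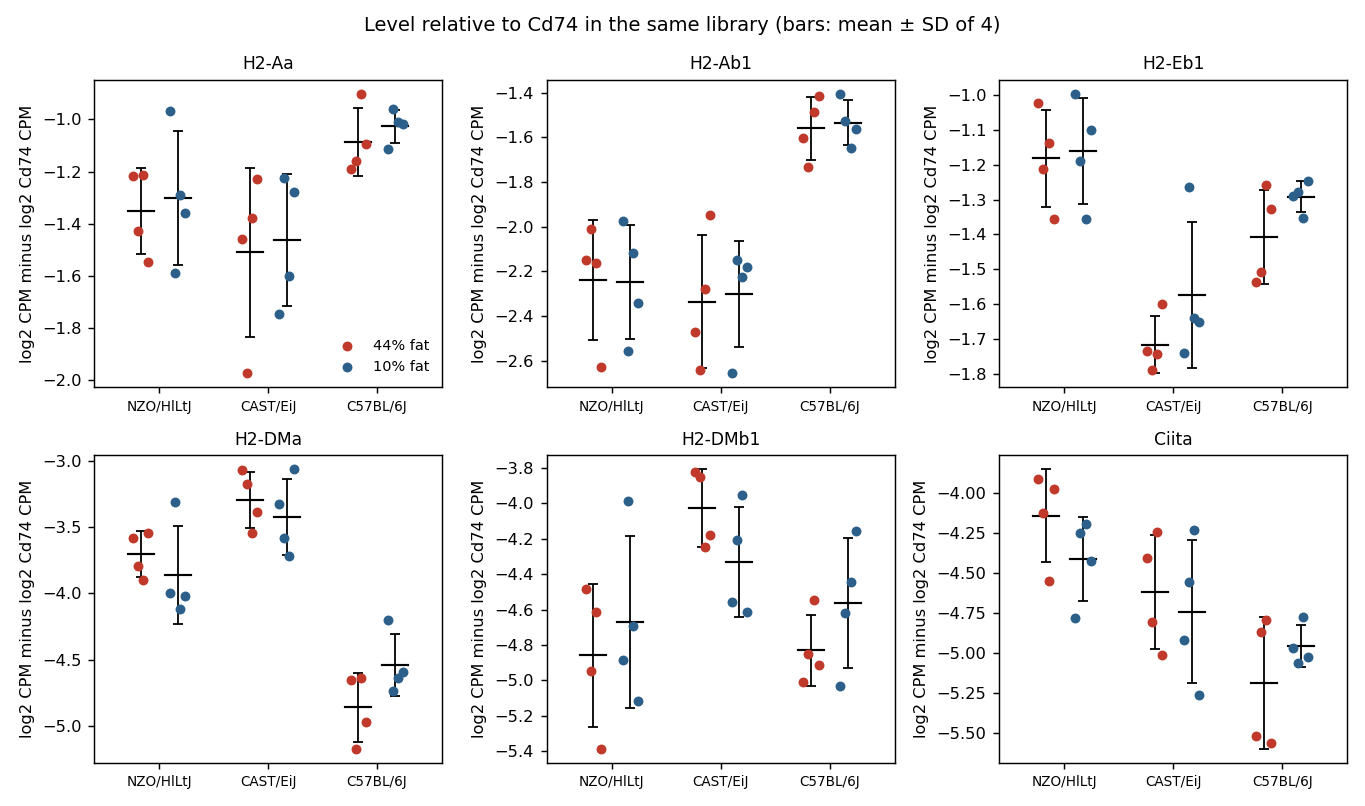
Log2 CPM of each other member minus log2 CPM of Cd74 in the same library (prior count 2), by strain and diet; bars are the mean ± SD of 4 libraries. H2-Ab1 lies at -1.74 or above in C57BL/6J and at -1.95 or below in both other strains, and H2-DMa lies lowest in C57BL/6J.

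The other class II locus genes did not all follow. Of these, H2-DMb2 held both box matches and H2-Ob and H2-Oa the Y match, as given above. H2-Ob, the beta chain of the H2-DO inhibitor of H2-DM, was at 0.862 ± 0.251 CPM in NZO/HlLtJ, 0.369 ± 0.163 CPM in CAST/EiJ and 0.955 ± 0.156 CPM in C57BL/6J (SD, n = 8 each). It was lower in CAST/EiJ (log2 change -1.37, adjusted p = 0.000207) and at -0.13 (adjusted p = 0.718) in NZO/HlLtJ. The difference between NZO/HlLtJ and CAST/EiJ was itself called, at 1.23 (adjusted p = 0.000543). H2-Oa, its alpha chain, had 0 to 6 counts per library in NZO/HlLtJ, 0 to 4 in CAST/EiJ and 2 to 13 in C57BL/6J. At these low counts its log2 change was -1.86 (SE 0.78, adjusted p = 0.0701) in NZO/HlLtJ and -1.89 (SE 0.76, adjusted p = 0.0398) in CAST/EiJ, the direction of the 7 members. BC051537 overlaps H2-Oa on the opposite strand by 321 of the 1407 exon bases of H2-Oa. H2-DMb2 was called in neither strain, at -0.65 (adjusted p = 0.185) and -0.39 (adjusted p = 0.365).

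Of the 7 genes of the factors that dock Ciita on class II promoters, 2 were lower in NZO/HlLtJ and none higher, and 3 were lower and 1 higher in CAST/EiJ. That is 2 of 7 called where 35.5% of all genes were called in NZO/HlLtJ, and 4 of 7 where 58.8% were called in CAST/EiJ. Rfxank, an RFX subunit, was lower in both, at -0.74 (SE 0.06, adjusted p = 1.05e-08) in NZO/HlLtJ and -0.93 (SE 0.06, adjusted p = 1.48e-10) in CAST/EiJ. Rfxap, another RFX subunit, was lower in CAST/EiJ (-0.26, adjusted p = 0.00583), and Rfx5 passed the test in neither (-0.15, adjusted p = 0.192, and 0.17, adjusted p = 0.0929). The annotated gene Nr2c2ap overlaps Rfxank on the opposite strand by 1341 of the 3967 exon bases of Rfxank, all within its deposited span. With the use of strand not given, the part of Nr2c2ap reads in the Rfxank counts was not tested. The median of the list was -0.13 in NZO/HlLtJ and 0.03 in CAST/EiJ.

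Of the 7 measured genes of the interferon gamma path that induces Ciita, 4 were lower in NZO/HlLtJ and 5 in CAST/EiJ, and none was higher, where 17.6% and 29.7% of all genes were called lower. The receptor subunit gene Ifngr2 was at -0.19 (SE 0.05, adjusted p = 0.00576) in NZO/HlLtJ and -1.29 (SE 0.05, adjusted p = 1.2e-13) in CAST/EiJ. Socs1, a feedback inhibitor, was lower in CAST/EiJ (-1.66, SE 0.34, adjusted p = 0.000356) and at -0.33 (adjusted p = 0.446) in NZO/HlLtJ. The list medians were -0.21 and -0.35.

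Of 8 genes of peptide loading and class II turnover, 2 were higher and 1 lower in NZO/HlLtJ, and 2 were higher and 4 lower in CAST/EiJ, with list medians of 0.07 and -0.15. The 3 of 8 called in NZO/HlLtJ and 6 of 8 in CAST/EiJ stand beside 35.5% and 58.8% of all genes. Ctss, the cathepsin that trims the invariant chain, was lower in both, at -0.55 (SE 0.11, adjusted p = 0.000737) and -1.25 (SE 0.11, adjusted p = 3.97e-08). Ifi30, a lysosomal thiol reductase, was higher in both, at 0.57 (SE 0.08, adjusted p = 7.77e-06) and 0.31 (SE 0.08, adjusted p = 0.00199). March1, a ubiquitin ligase that removes class II from the surface, was lower in CAST/EiJ (-0.56, adjusted p = 0.0142) and at -0.23 (adjusted p = 0.367) in NZO/HlLtJ.

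Whole hearts hold several cell types that express class II, and fewer cells of a type and less RNA per cell cannot be told apart in these samples. Of the 10 dendritic cell markers, 5 were lower and 2 higher in NZO/HlLtJ, and 7 were lower and none higher in CAST/EiJ. For these and the marker lists that follow, the shares of all genes called lower were 17.6% in NZO/HlLtJ and 29.7% in CAST/EiJ, and 35.5% and 58.8% were called in either direction. The summed level of the dendritic cell markers lay between 29.9 and 34.1 CPM in NZO/HlLtJ, 23.4 and 31.4 CPM in CAST/EiJ and 30.5 and 35.0 CPM in C57BL/6J. Most of it was Zbtb46, at 18.8, 18.7 and 21.6 CPM, so the sum follows mainly this gene. Which cells made the Zbtb46 RNA was not tested. Among the others, Itgax changed by -1.21 (adjusted p = 0.000344) in NZO/HlLtJ and -0.82 (adjusted p = 0.00339) in CAST/EiJ, while Clec9a was higher in NZO/HlLtJ (0.69, adjusted p = 0.00405). Cd209a was at 0 in 1 NZO/HlLtJ library and Batf3 in 1 NZO/HlLtJ and 1 CAST/EiJ library, and the other dendritic cell markers had counts in all 24 libraries.

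Of the 13 macrophage and monocyte markers, 6 were lower in NZO/HlLtJ and none higher, and 7 were lower and 1 higher in CAST/EiJ, so that 6 of 13 and 8 of 13 were called, beside 35.5% and 58.8% of all genes. Their summed level was 242 to 342 CPM in NZO/HlLtJ, 257 to 328 CPM in CAST/EiJ and 282 to 359 CPM in C57BL/6J, ranges that overlap. Single markers were less alike than the sums. In the same order of strains, mean levels were 9.49, 5.64 and 12.4 CPM for Adgre1 and 1.64, 1.02 and 3.22 CPM for Ccr2. For Cd163 they were 21.2, 33.6 and 24.9 CPM, highest in CAST/EiJ. Of the 10 B cell markers, none was called in NZO/HlLtJ and 1 was lower in CAST/EiJ, with summed levels of 11.1 to 33.8 CPM, 7.69 to 21.9 CPM and 8.24 to 51.4 CPM. The largest single part of these sums was Ighm, with means of 10.3, 5.69 and 10.1 CPM. Its highest levels were 24.9, 12.6 and 36.8 CPM, so the B cell sum follows this gene closely. Of the 10 T and NK cell markers tested, 1 was higher in NZO/HlLtJ and 8 were lower in CAST/EiJ, beside 29.7% of all genes lower in CAST/EiJ, with sums over the 11 in the files of 1.47 to 4.46 CPM, 0.415 to 1.63 CPM and 1.81 to 4.17 CPM. In CAST/EiJ, the natural killer cell genes Ncr1 and Nkg7 were at 0 in 4 of 8 libraries each, and the T cell gene Cd3g was at 0 in 3. Zeros also occurred in the other strains. Cd3e and Cd3d were each at 0 in 2 C57BL/6J libraries and 1 CAST/EiJ library. Cd8b1 was at 0 in 3 NZO/HlLtJ, 2 CAST/EiJ and 1 C57BL/6J libraries, and Cd8a in 1 NZO/HlLtJ and 2 CAST/EiJ libraries. Lck and Klrb1c were each at 0 in 1 CAST/EiJ library. The part of these cell types in the class II differences was not tested.

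**Figure D4:**
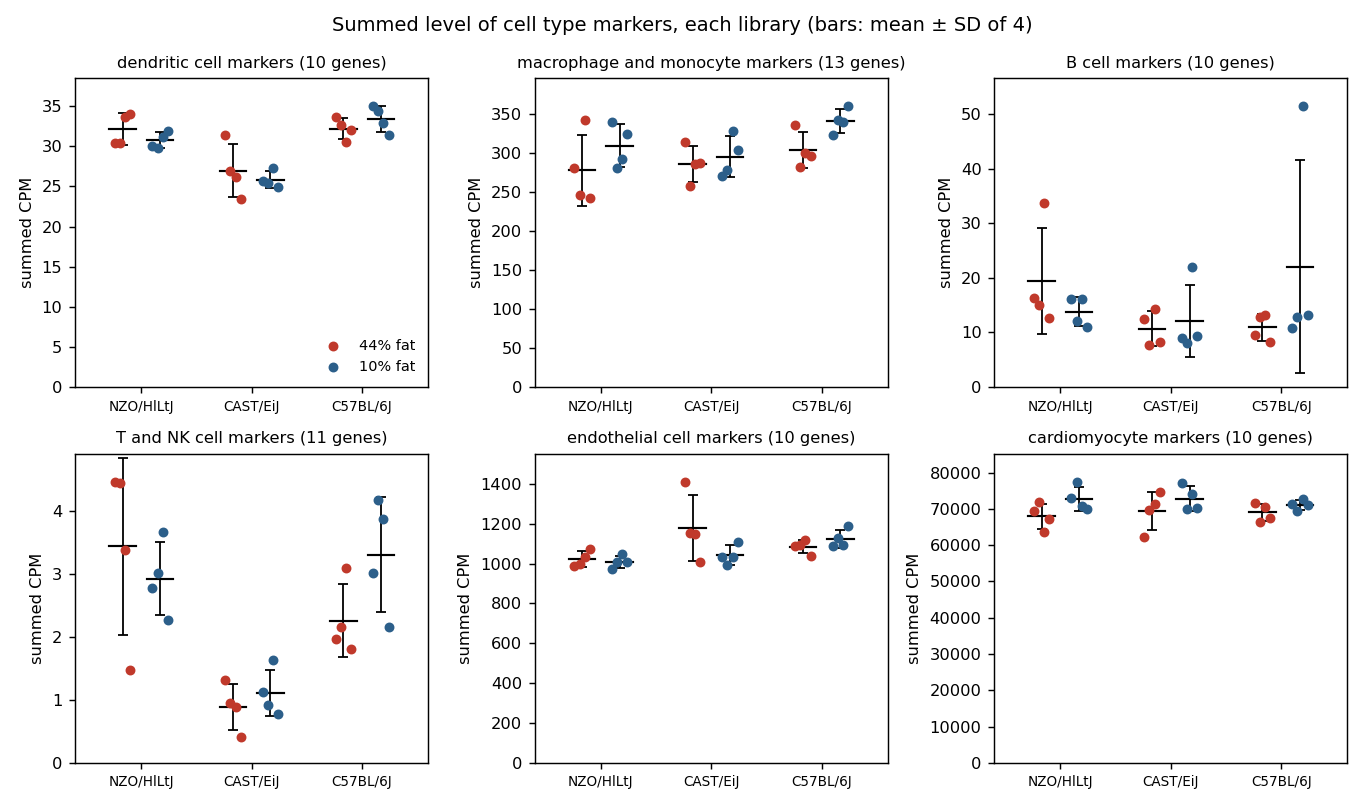
Summed CPM of 6 lists of cell type markers in each library, by strain and diet; bars are the mean ± SD of 4 libraries. The dendritic cell sum, most of it Zbtb46, reaches its lowest values in CAST/EiJ, the macrophage sums of the 3 strains overlap, and 1 C57BL/6J library has a B cell sum of 51.4 CPM.

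The library with the most B cell marker RNA, C57BL/6J male 10% fat replicate 1, also had the highest Cd74 of all (71.2 CPM) and the highest H2-Aa, H2-Eb1, H2-DMa, H2-DMb1 and Ciita. The NZO/HlLtJ library with the most B cell marker RNA (33.8 CPM), male 44% fat replicate 1, had the highest level of all 7 members within its strain. It also had the highest macrophage and monocyte sum of its strain (342 CPM). The CAST/EiJ library with the most B cell marker RNA (21.9 CPM), male 10% fat replicate 1, had the highest level of no member. Its Cd74 was 15.6 CPM, where the strain's median was 14.6 and its highest 16.3. This library also lay above the strain median for H2-Ab1 (3.30 against 3.01 CPM), H2-Eb1 (4.97 against 4.79), H2-DMb1 (0.958 against 0.795) and Ciita (0.780 against 0.496). It lay under the median for H2-Aa (5.10 against 5.57 CPM) and H2-DMa (1.14 against 1.37). Its macrophage and monocyte sum was the highest of its strain too (328 CPM). Without the C57BL/6J library the log2 change of Cd74 was -1.49 in NZO/HlLtJ and -1.98 in CAST/EiJ. Without the NZO/HlLtJ library it was -1.67 in NZO/HlLtJ. All 7 members stayed called lower in both strains without either library. The part of B cells or macrophages in these levels was not tested.

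No member passed the test for diet. At 44% against 10% fat, 0 of 7 members were called in NZO/HlLtJ, CAST/EiJ, C57BL/6J or the mean of the 3 strains, where 0%, 0%, 0.0407% and 0.157% of all genes were called. At an unadjusted p under 0.05 there were also 0 members in each of these, against 1233, 1137, 965 and 1515 genes in all, and DESeq2 and limma-voom called 0 as well. The smallest adjusted p of a member was 0.897 in NZO/HlLtJ, 0.844 in CAST/EiJ, 0.955 in C57BL/6J and 0.928 over the strains. A p that misses the threshold does not show that levels were equal: with an SE of 0.10, the mean diet effect on Cd74 of 0.05 could have missed a small change, and SEs within a strain ran up to 0.34.

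For Cd74 in NZO/HlLtJ, the 4 libraries on 44% fat had 17.9, 16.97, 30.7 and 15.8 CPM, and the 4 on 10% fat had 22.4, 16.9, 21.4 and 21.1 CPM. One library on 44% fat stood above all others and the rest lay at or below most of those on 10% fat. The log2 change was -0.02 (SE 0.17), and without that library, male 44% fat replicate 1, it was -0.30 (SE 0.12, adjusted p = 0.288). In CAST/EiJ Cd74 had 15.9, 13.7, 16.3 and 15.03 CPM on 44% fat and 11.5, 14.2, 15.6 and 13.2 CPM on 10% fat, a log2 change of 0.17 (SE 0.17). In C57BL/6J it had 59.4, 53.6, 60.3 and 61.5 CPM on 44% fat and 46.7, 60.5, 71.2 and 56.8 CPM on 10% fat, a log2 change of 0.00 (SE 0.16). In each strain the ranges of the 2 diets overlapped.

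Among the members, the difference of the diet effect between strains had its smallest p for H2-DMa. Its diet effect was 0.31 (SE 0.20) in CAST/EiJ and -0.30 (SE 0.19) in C57BL/6J, and the difference of 0.61 (SE 0.28) had an unadjusted p of 0.0403 and an adjusted p of 0.759. On 44% fat the CAST/EiJ libraries had 1.85, 1.47, 1.35 and 1.39 CPM, and on 10% fat 1.1, 1.13, 1.14 and 1.53 CPM. The C57BL/6J libraries had 2.31, 1.44, 2.37 and 1.91 CPM on 44% fat and 2.49, 2.22, 2.81 and 2.31 CPM on 10% fat. The diets overlapped in both strains. For H2-DMb1 the same difference was 0.73, with a wider error (SE 0.45, adjusted p = 0.811). No difference of the diet effect between strains was called for any member, where 0.00581%, 0% and 0% of all genes were called for NZO/HlLtJ against C57BL/6J, CAST/EiJ against C57BL/6J and NZO/HlLtJ against CAST/EiJ.

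**Figure D5:**
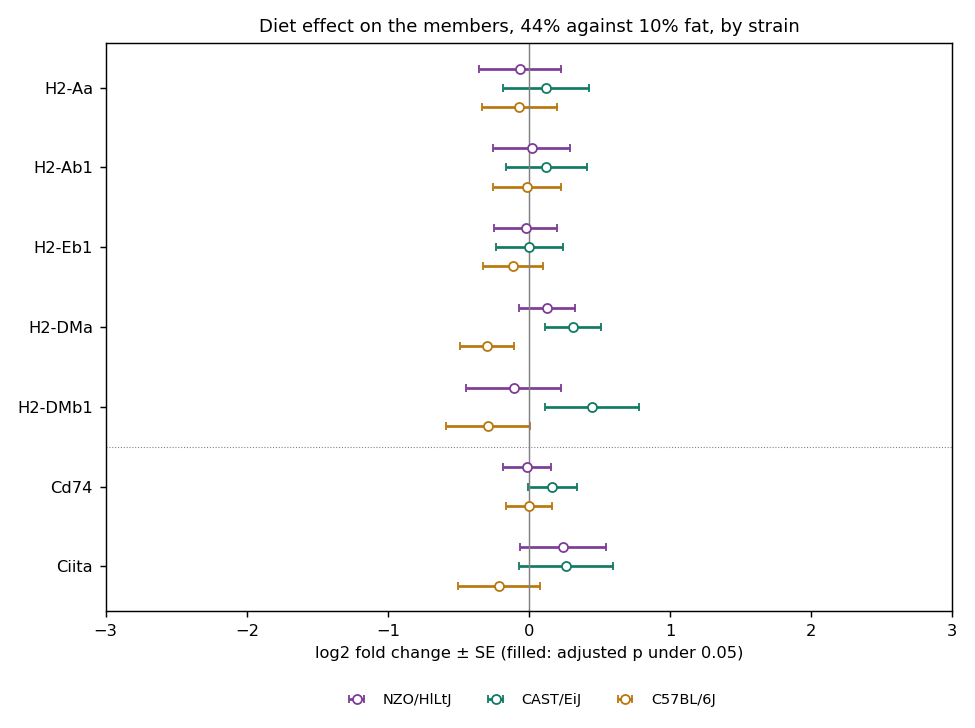
Log2 fold change ± SE of the 7 members at 44% against 10% fat in each strain; filled points would have an adjusted p under 0.05, and there are none. All values lie between -0.30 and 0.44, on the axis range that held the strain differences.

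Female hearts had lower values than male hearts for all 7 members, and none passed the test, where 0.372% of all genes were called. The log2 change, female against male, ran from -0.27 for H2-Ab1 to -0.06 for H2-DMa, with a median of -0.19, and the smallest adjusted p was that of Cd74 (-0.19, SE 0.10, adjusted p = 0.596). Cd74 ranged over 11.5 to 60.5 CPM in females (median 17.4) and 13.2 to 71.2 CPM in males (median 21.2), 12 libraries each over the 3 strains. These ranges pool 3 strains of different level, so their overlap says little about sex. Within a strain, female and male means of Cd74 were 18.55 ± 2.61 and 22.24 ± 6.23 CPM in NZO/HlLtJ (SD, n = 4 each). They were 13.83 ± 1.82 and 15.02 ± 1.35 CPM in CAST/EiJ, and 55.02 ± 6.33 and 62.43 ± 6.16 CPM in C57BL/6J.

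Members followed Cd74 from library to library to unequal degrees. After each strain's mean was subtracted, Pearson's r of log2 CPM with Cd74 over the 24 libraries was 0.87 for H2-Eb1 and H2-Aa, 0.83 for H2-Ab1, 0.70 for H2-DMb1, 0.51 for Ciita and 0.40 for H2-DMa, whose Spearman rho was 0.18. The order within a strain was not always the same, with 8 libraries per strain, and differences of r between strains were not tested. Over the 8 CAST/EiJ libraries alone, r was 0.84 for Ciita and for H2-DMb1, above the 0.72 to 0.78 of the 3 chain genes. In NZO/HlLtJ and C57BL/6J, r of Ciita was 0.44 and 0.48, and the chain genes had 0.89 to 0.94 and 0.79 to 0.92. These are descriptions of genes that share libraries and library totals, and counting error is larger for H2-DMb1, Ciita and H2-DMa. Among 12098 other genes, those most like Cd74 by this measure were H2-Ea-ps (0.81, a gene at 0 in 8 of the libraries), Srd5a3 (0.79), Rspo1 (0.78), C4b (0.76) and Rarres2 (0.75). Those most like Ciita were Bcar3 (0.81), Ano1 (0.80), Asxl1 (0.75), Cybrd1 (0.73) and Scarf2 (0.72), and for H2-Ab1 they were H2-Ea-ps (0.79), Adamts6 (0.74), Lrrc75b (0.73), Apobr (0.71) and Camk1d (0.70). With the 12 group means subtracted instead, 3 of these 15 likenesses stayed among the 5 highest of their member (Ano1 and Asxl1 for Ciita, H2-Ea-ps for H2-Ab1), and the other 12 ranked from 6 to 186.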

How the data were processed

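Expected counts per gene were deposited by the authors. These are estimated counts that need not be whole, and 19.3% were not whole (tolerance 1e-06). The submitters' processing notes name GRCm38 and DESeq2, with no version or role. Not given in the sources used here were the aligner, the counter, the use of strand and any strain-specific genome. GRCm38 is a C57BL/6J assembly and class II genes are highly polymorphic, and the effect of that on the counts was not tested. Expected counts were rounded and fitted in edgeR 4.0.16 (R 4.3.3) with quasi-likelihood tests and 12 group means over all 24 libraries. Genes were kept by filterByExpr (minimum count 10, minimum total 15), which removed 3758. TMM factors lay between 0.954 and 1.06. The 11 contrasts weighted groups equally. Ratios to Cd74 were tested in limma 3.58.1 with a prior count of 2. DESeq2 1.42.0 and limma-voom were alternatives, and both model steps were tested on simulated data. Positions come from GENCODE M21 on GRCm38, and CPM per kb uses its exon length. The 7 members and the gene lists were chosen with earlier results of these data known. Other genes named are all or the called members of those lists, up to 3 per marker list with markers at 0 in some library, and the 5 genes most like each of 3 members. One gene of these lists is not reported here. Replicate numbers follow accession order and pair no samples. The deposited variance-stabilized values were not used.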

Additional observations from a re-analysis of the deposited data

Results flagged for a closer look

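Of 63 groups of libraries examined, 3 held a library far from the rest by Dixon's criterion at 95%, which chance alone gives in about 1 in 20 groups. For Cd74 in NZO/HlLtJ, male 44% fat replicate 1 stood at 30.73 CPM. The nearest other library of NZO/HlLtJ on 44% fat was at 17.9 CPM and the nearest of the 8 NZO/HlLtJ libraries at 22.4 CPM, so both the group of 4 and the group of 8 met the criterion. For H2-DMa in CAST/EiJ on 10% fat, male replicate 2 stood at 1.526 CPM and the nearest other library at 1.14 CPM.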

How the results depend on the processing

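Each strain difference of a member kept its direction and its side of the threshold where it was called under the 133 values from RLE factors, no filter, DESeq2, limma-voom, the identifier range as a block or alone, and only the strains compared, and under the 504 values that left out 1 library. No member was called for diet, for a difference of diet effects or for sex under any of these. Read at 1 diet or 1 sex, or with H2-DMb1 and H2-DMb2 summed, settings chosen after seeing the data, 13 of 105 strain values were no longer called, none of them in the summed setting. The members called between NZO/HlLtJ and CAST/EiJ then numbered 2 at 44% fat alone, 3 in females alone and 3 in males alone, against 5 over all libraries, and each of these uses fewer libraries. Ratios to Cd74 were less stable: leaving out 1 library ended 3 calls and made 11. No called value changed its sign. Uncalled diet values changed sign in 66 of 672 leave-one-out fits. Leaving out 1 library moved the log2 change of Cd74 between -1.67 and -1.43 in NZO/HlLtJ and between -2.07 and -1.97 in CAST/EiJ. No paired analysis was possible because replicate numbers were given in accession order. Depth limits Ciita and H2-DMb1 most, with as few as 9 and 12 counts in a library. Likenesses between genes depend on the means subtracted, as given above. Without the 2 farthest libraries, that of Apobr to H2-Ab1 was 0.49, against 0.71, and that of H2-Ea-ps to Cd74 was 0.64, against 0.81. That of Srd5a3 to Cd74 stayed at 0.79.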
